A study of Mus musculus with 2 samples.

Results

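Hepatocyte identity transcription factors are described here in mouse liver after concanavalin A injury: Hnf4a, Nr5a2, Onecut1, Foxa1, Foxa2, Foxa3, Cebpa, Cebpb and Prox1. They were chosen by name, and all 9 are among the 32287 features counted in both libraries. The livers came from wild-type C57BL/6J mice that received an adeno-associated virus (AAV) at 4 weeks of age, carrying either a short hairpin against Bicd2 (shBicd2) or a scrambled hairpin (scramble). Bicd2 encodes an adaptor between cargo and the dynein motor. In both groups concanavalin A, a plant lectin used to provoke T cell hepatitis, was given intravenously at 15 mg/kg 3 weeks later, and tissue was taken after a further 6 hours. Both groups were therefore injured, and no liver without concanavalin A was analysed here. Each group is 1 library. How many mice it holds, whether they were pooled and which vector carries EGFP are not given by the labels.

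These factors form the regulatory network that establishes and keeps the hepatocyte programme. FOXA proteins are pioneer factors that open liver enhancers, HNF4A and LRH-1 (encoded by Nr5a2) are nuclear receptors that drive metabolic genes, and HNF6 (encoded by Onecut1) is a cut-homeodomain factor that acts with them. C/EBP alpha maintains metabolic genes in the quiescent liver, C/EBP beta is induced in the acute-phase response and in regeneration, and PROX1 is a homeobox factor needed for hepatocyte migration in the embryo and later a corepressor of HNF4A and LRH-1.

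The deposited files held 3038 barcodes and 5624055 UMIs (unique molecular identifiers, 1 per counted RNA molecule) under the label shBicd2, and 2805 barcodes and 5086306 UMIs under the label scramble. After filtering, 2941 and 2729 barcodes remained, with median depths of 1495 and 1502 UMIs, and 3 barcode sequences occurred in both libraries. The targeted RNA was not lower: Bicd2 reached 19.6 CPM (UMIs per 1000000 counted) in shBicd2 and 16.9 CPM in scramble, a ratio of 1.16 (95% interval 0.860 to 1.56), so the libraries are called by their labels. EGFP RNA reached 889 CPM in shBicd2 and 69.6 CPM in scramble (ratio 12.8, 11.4 to 14.3). With 1 library a group no comparison could be tested; intervals reflect counting error alone and hold no spread between animals.

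Clusters that raised the markers of no class, other than the mixed cluster 10 described next, are together called the main population: 2349 barcodes of the library labelled shBicd2 and 2202 of the library labelled scramble, with medians of 1692 and 1648 UMIs. All 12 hepatocyte markers were found in it, at a summed 13324 and 11847 CPM. Mitochondrial RNA was a median 0.283% and 0.157% of a barcode's UMIs there, and the nuclear RNA Neat1 reached 48571 and 68960 CPM. A further 293 and 237 barcodes, richer in mitochondrial RNA, are called hepatocyte-like. The other classes (monocyte/macrophage, stellate/fibroblast, endothelial, neutrophil and mesothelial-like barcodes and a cluster of mixed B cell and erythroid markers, cluster 10, left unnamed) held 299 and 290 barcodes, with medians of 774 and 816 UMIs. They were not free of hepatocyte RNA: in cluster 10 the hepatocyte markers summed to 10782 and 9155 CPM. Levels in these classes are therefore given beside each share as a measure of free RNA, although myeloid cells are themselves known to make Cebpa and Cebpb.

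In the main population Onecut1, Nr5a2 and Hnf4a were lower in the library labelled shBicd2 and Foxa2 was higher, each by at least 1.5-fold. Cebpa and Prox1 were lower and Cebpb was higher by less than that, and Foxa3 lay close to equal. Of the 9 factors 8 had the 50 UMIs set as a minimum; 3 of these were lower by 1.5-fold or more, against 10.3% of all 9310 genes with that many UMIs, and 1 was higher, against 22.4% of them. The median log2 ratio was -0.40 over the 8 factors and 0.13 over all genes. Over all kept barcodes, which needs no clustering, 2 of 9 factors were lower by 1.5-fold (9.97% of 9863 genes) and 1 was higher (21.9%). Scaling by TMM factors instead of totals lowers every log2 ratio in the main population by 0.17. With Neat1, Malat1 and mitochondrial genes left out of the totals the ratio was 0.247 for Onecut1, 0.489 for Nr5a2, 0.614 for Hnf4a and 1.56 for Foxa2, and the counts past 1.5-fold were the same. In bulk sums such as these, fewer cells making an RNA and less RNA per cell cannot be told apart.

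**Figure D1:**
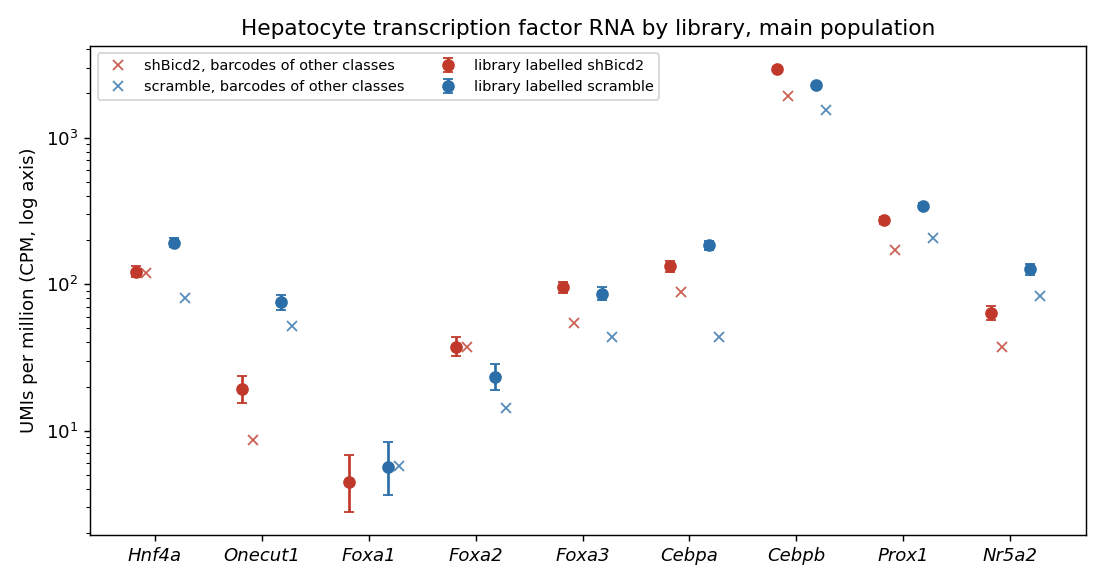
Level of each factor in the main population, in CPM on a log axis, with 95% Poisson intervals, for the libraries labelled shBicd2 (red) and scramble (blue). Crosses give the same gene in barcodes outside the main and hepatocyte-like classes (Foxa1 had no UMI there in shBicd2 and has no cross); Onecut1 stands at 19.2 and 75.2 CPM, the widest gap between the libraries.

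The 4 factors past 1.5-fold are shown with a stretch before an annotated start, from RefSeq on GRCm38.p6, 5′ to 3′ on the gene's strand. Capitals mark matches to short consensus motifs for these same factor families. Nr5a2 is shown at the second of its starts and Hnf4a at the upstream one; adult liver mainly uses the downstream Hnf4a start, whose window overlaps annotated exon. The 3′ counts do not tell which start was used.
Onecut1, chr9:74861671-74861920, plus strand: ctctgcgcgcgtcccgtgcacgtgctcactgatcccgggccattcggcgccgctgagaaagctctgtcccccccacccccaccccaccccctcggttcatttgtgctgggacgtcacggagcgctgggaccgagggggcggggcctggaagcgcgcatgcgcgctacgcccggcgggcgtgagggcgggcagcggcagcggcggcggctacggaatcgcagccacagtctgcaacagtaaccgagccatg
Nr5a2, chr1:136953631-136953880, minus strand: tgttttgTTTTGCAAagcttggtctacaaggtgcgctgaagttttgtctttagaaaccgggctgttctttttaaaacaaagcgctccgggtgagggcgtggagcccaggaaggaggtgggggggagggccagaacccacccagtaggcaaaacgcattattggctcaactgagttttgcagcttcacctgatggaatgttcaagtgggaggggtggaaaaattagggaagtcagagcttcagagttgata
Hnf4a, chr2:163506607-163506807, plus strand: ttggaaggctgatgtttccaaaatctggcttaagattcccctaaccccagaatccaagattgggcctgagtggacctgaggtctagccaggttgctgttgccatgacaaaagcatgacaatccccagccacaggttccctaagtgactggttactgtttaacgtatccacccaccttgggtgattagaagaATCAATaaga
Foxa2, chr2:148046970-148047219, minus strand: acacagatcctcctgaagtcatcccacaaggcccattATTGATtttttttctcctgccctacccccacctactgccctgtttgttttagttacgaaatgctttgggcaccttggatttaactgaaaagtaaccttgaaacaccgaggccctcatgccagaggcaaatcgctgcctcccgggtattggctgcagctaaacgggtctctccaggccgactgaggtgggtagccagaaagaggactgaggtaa

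Both strands were searched for ATCAAT (ONECUT), TGTTTAC and TATTTAC (FOXA), TTGCGCAA and the looser TTGCNNAA that contains it (C/EBP), CAAAGTCCA (HNF4), and TCAAGGTCA and CAAGGNCA, which overlap (LRH-1). Hnf4a and Foxa2 each held 1 ATCAAT match, at 59 and 213 bases before the RefSeq start; the Foxa2 match is on the other strand and reads ATTGAT. The search covered the 250 bases before each start, of which the Hnf4a stretch above leaves out the annotated exon. Over 32851 promoter windows of 250 bases, 6.72% hold that motif. The Nr5a2 window held 1 TTGCNNAA match at 243 bases, a motif found in 9.56% of windows. For Hnf4a, Foxa2 and Nr5a2, which have several starts, the window shown is the one with a match; the windows of their other starts held none of the motifs searched, and the shares are per window, not per gene. In the Onecut1 window, which is 71.6% G and C against a median of 52.4% over all windows, none of the letters searched occurred. A match is a description of the sequence and not a binding site.

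Onecut1 (ENSMUSG00000043013, GRCm38 chromosome 9, 74861921 to 74891781, plus strand) had the lowest ratio of the 9. From 90 UMIs its level was 19.2 CPM (15.4 to 23.6) under the label shBicd2, and from 319 UMIs it was 75.2 CPM (67.1 to 83.9) under the label scramble. The ratio was 0.255 (0.199 to 0.323), and 0.344% of the 9310 genes had a ratio as low or lower. It was also lower outside the main population: 0.185 (0.0548 to 0.496) in hepatocyte-like barcodes, from 5 and 23 UMIs, and 0.165 (0.0312 to 0.567) in the other classes, from 3 and 18 UMIs. The other classes serve here as a measure of free RNA, so the last ratio does not show a difference within their own cells. After each barcode was thinned to 1000 UMIs, 1.94% (1.36% to 2.68%) of main population barcodes in shBicd2 had an Onecut1 UMI, against 7.56% (6.36% to 8.91%) in scramble. The other classes stood at 0.952% (0.0241% to 5.19%) and 3.74% (1.03% to 9.30%), intervals that hold the main population share of the same library. By share Onecut1 was thus not shown to stand above background. Unthinned, the shares in the main population were 3.53% and 11.7%. Its paralog Onecut2 differed less, with 482 CPM in shBicd2 and 583 CPM in scramble (ratio 0.827, 0.781 to 0.876). Most scramble UMIs of Onecut1 came from clusters that held almost no shBicd2 barcode (clusters 2 and 6, described below); without these clusters the ratio was 0.613 (0.434 to 0.872).

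Nr5a2 (ENSMUSG00000026398, chromosome 1, 136842571 to 136960448, minus strand) came to 63.7 CPM (56.7 to 71.3) from 299 UMIs in the library labelled shBicd2, and to 126 CPM (116 to 137) from 535 UMIs in scramble. Its ratio of 0.505 (0.437 to 0.583) had 3.39% of genes at or below it. Hepatocyte-like barcodes gave 0.361 (0.203 to 0.622) and the other classes 0.445. At 1000 UMIs per barcode the shares were 5.55% and 11.3% in the main population, against 2.86% (0.593% to 8.12%) and 8.41% (3.92% to 15.4%) in the other classes. Both of these intervals hold the main population share of the same library, so by share Nr5a2 was not shown to stand above background. By level its point value was higher in the main population, but this rests on few UMIs in the other classes and was not tested. Unthinned, the other classes held only 13 Nr5a2 UMIs among 349410 in shBicd2 and 29 among 346763 in scramble. The ratio without clusters 2 and 6 was 0.613 (0.510 to 0.737).

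Hnf4a (ENSMUSG00000017950, chromosome 2, 163506808 to 163572910, plus strand) came to 122 CPM (112 to 132) from 571 UMIs in the library labelled shBicd2 and to 192 CPM (179 to 205) from 814 UMIs in scramble, a ratio of 0.634 (0.569 to 0.706). This direction did not extend to the smaller classes. Hepatocyte-like barcodes gave a ratio of 1.18 (0.796 to 1.77), and the other classes 1.49 (0.901 to 2.49), from 120 and 80.7 CPM. In shBicd2 the main population level was thus close to that of the other classes. Thinned shares show the same: 10.3% and 18.1% in the main population, against 10.5% and 8.41% in the other classes, so that the shBicd2 share is no higher than background. Without clusters 2 and 6 the ratio turned to 1.11 (0.946 to 1.31), and leaving out cluster 1 as well, the largest cluster of shBicd2, gave 0.698 (0.572 to 0.851). Hnf4aos, an antisense RNA that overlaps Hnf4a on the other strand, had 76 and 6 UMIs in the main population, a ratio of 11.4 (5.02 to 32.2). Strand use in counting is not stated by the labels or file headers, and the 76 UMIs are few beside the 571 of Hnf4a.

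The FOXA genes did not move as a group. Foxa2 (ENSMUSG00000037025, chromosome 2, 148042877 to 148046969, minus strand) came to 37.5 CPM from 176 UMIs in the library labelled shBicd2 and to 23.3 CPM from 99 UMIs in scramble, a ratio of 1.61 (1.25 to 2.08). With 22.4% of all genes higher by 1.5-fold, this ratio is not unusual: 81.8% of genes lay at or below it. Under TMM scaling it was 1.42 (1.11 to 1.84). Foxa3 (ENSMUSG00000040891, chromosome 7, 19013284 to 19023538, minus strand) had 95.0 CPM in shBicd2 and 86.2 CPM in scramble; its ratio of 1.10 (0.957 to 1.27) has an interval that includes 1. Foxa1 (ENSMUSG00000035451, chromosome 12, 57540628 to 57546916, minus strand) had only 21 and 24 UMIs, or 4.47 and 5.66 CPM, a ratio of 0.791 (0.419 to 1.48) that this depth cannot place on either side of 1. The quotient of Foxa2 over Foxa3 UMIs, which does not depend on scaling, was 0.395 (0.330 to 0.471) in shBicd2 and 0.270 (0.214 to 0.339) in scramble. Thinned shares of barcodes with a UMI were 3.61% and 2.37% for Foxa2 (1.90% and 0.935% in the other classes). The intervals of the other classes, 0.232% to 6.71% and 0.0237% to 5.10%, hold the main population share of the same library. By share Foxa2 was thus not shown to stand above background. By level Foxa2 in the other classes of shBicd2 stood at 37.2 CPM (19.8 to 63.6), close to the main population. This rests on 13 UMIs, 10 of them in neutrophil-like barcodes. In scramble it stood at 14.4 CPM (4.68 to 33.6), from 5 UMIs. Thinned shares were 9.05% and 8.08% for Foxa3 (5.71% and 5.61%), and 0.377% and 0.751% for Foxa1. Foxa1 was found in 0 of 105 and 0 of 107 thinned barcodes of the other classes (allowing shares of up to 2.86% and 2.80%).

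The C/EBP pair went in opposite directions. Cebpa (ENSMUSG00000034957, chromosome 7, 35119293 to 35121928, plus strand) came to 132 CPM (122 to 143) in the library labelled shBicd2 and to 184 CPM (172 to 198) in scramble, from 619 and 782 UMIs, a ratio of 0.715 (0.643 to 0.796), which was 0.463 (0.412 to 0.521) without clusters 2 and 6. Cebpb (ENSMUSG00000056501, chromosome 2, 167688915 to 167690418, plus strand, a gene of 1 exon) came to 2929 CPM (2880 to 2978) and 2285 CPM (2240 to 2331), from 13755 and 9697 UMIs, a ratio of 1.28 (1.25 to 1.32). The quotient of Cebpb over Cebpa UMIs was 22.2 (20.5 to 24.1) in shBicd2 and 12.4 (11.5 to 13.4) in scramble; in hepatocyte-like barcodes it was 12.6 (9.49 to 17.0) and 12.2 (9.14 to 16.5), with no such gap. Cebpb was the factor found in most barcodes, 87.8% and 83.4% after thinning, but the other classes also reached 76.2% and 72.9%. Thinned Cebpa shares were 12.1% and 15.0% in the main population and 12.4% and 3.74% in the other classes. The Cebpb ratio depended on which clusters entered the sum: it was 1.02 (0.992 to 1.05) without cluster 5 and 0.966 (0.936 to 0.996) without clusters 2 and 6. The 3 main population clusters with at least 20 barcodes of each library, weighted equally, gave 1.35. Tmem189, which overlaps Cebpb on the other strand, had 150 and 24 UMIs in the main population, few beside the Cebpb counts.

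Prox1 (ENSMUSG00000010175, chromosome 1, 190118035 to 190170714, minus strand) came to 274 CPM (259 to 289) from 1285 UMIs in the library labelled shBicd2 and to 341 CPM (324 to 359) from 1449 UMIs in scramble. The ratio was 0.801 (0.743 to 0.864), and 20.7% of genes had one as low. Without clusters 2 and 6 it was 0.983 (0.887 to 1.09), with an interval that includes 1. Leaving out cluster 1 as well, which held 768 of the 1285 UMIs in shBicd2, gave 0.669. Thinned shares were 20.7% and 27.1% in the main population. In the other classes 20 of 105 thinned barcodes of shBicd2 and 23 of 107 of scramble held a Prox1 UMI. By share, the main population of shBicd2 was thus close to background. By level it stood higher: unthinned, the other classes held 60 Prox1 UMIs among 349410 in shBicd2 and 71 among 346763 in scramble. In both libraries this is a lower level than in the main population. Prox1os, the antisense neighbour of Prox1, had 85 and 84 UMIs, a ratio of 0.914 (0.668 to 1.25).

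**Figure D2:**
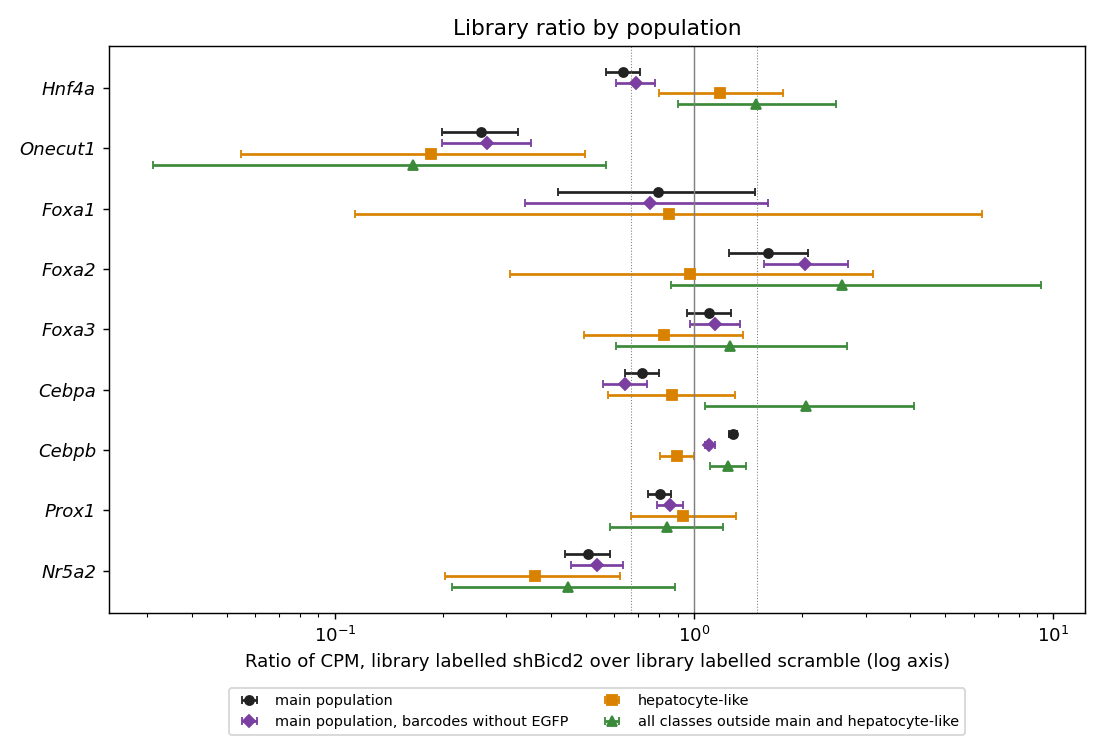
Ratio of CPM, shBicd2 over scramble, on a log axis with 95% intervals, for each factor in 4 populations; dotted lines mark 1.5-fold in each direction. Onecut1 and Nr5a2 lie left of 1 with their whole intervals in all 4, while Hnf4a, Cebpa, Cebpb, Foxa2 and Foxa3 have points on both sides.

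The mean number of factors seen per barcode was lower in shBicd2 in the main population and in hepatocyte-like barcodes. Such a mean is the sum of the single-factor shares, so it does not show whether factors occur in the same barcodes. Thinned to 1000 UMIs, a main population barcode held UMIs of a mean 1.52 of the 9 factors in shBicd2 and 1.74 in scramble. In hepatocyte-like barcodes the means were 1.45 and 1.62, and in the other classes 1.30 and 1.25.

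Clusters were computed without the 9 factors and without EGFP, yet the libraries hardly shared the largest ones. Among the more evenly shared were cluster 9 of the main population, with 69 and 112 barcodes, and hepatocyte-like cluster 7, with 128 and 203. Cluster 1 (led by G0s2, a lipolysis inhibitor, and Plin2, a lipid droplet protein) held 1119 barcodes of shBicd2 and 6 of scramble. Cluster 2 (led by Cyp21a1 and Sds) held 27 and 1002, and cluster 6 (with Glul and Cyp2c70 among its leading genes) held 2 and 380. Cluster 4 (Fmo1, Srxn1, Nos2) held 536 and 13, cluster 5 (the heat shock genes Hspb1, Hspa1a and Hspa1b) 454 and 19, and cluster 3 (Ripk2 and Maff among its leading genes) 65 and 562. A difference between the libraries and a difference between these clusters can therefore hardly be told apart. The main population gave 11 profiles, each 1 cluster in 1 library with at least 50 barcodes. In these the highest level was 2.08 times the lowest for Foxa3, 2.96 times for Cebpb, 6.42 times for Hnf4a and 10.5 times for Nr5a2. The lowest Nr5a2 profile held only 2 UMIs, so the last value is uncertain.

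Among these main population profiles Onecut1 was highest in scramble clusters 2 and 6, at 116 and 100 CPM. It did not exceed 22.2 CPM in any of the 6 from shBicd2. Hnf4a was also highest there, at 282 CPM in cluster 6 and 244 CPM in cluster 2, and reached 187 CPM in shBicd2 cluster 1. Its lowest level, 43.9 CPM, was in scramble cluster 13, which is led by interferon-induced genes such as Ifit1 and Rsad2. Cebpa ran the other way, with 342 CPM in that cluster 13 and 61.3 CPM in shBicd2 cluster 1. Cebpb peaked at 4569 CPM in the heat shock cluster 5 of shBicd2 and was lowest, at 1546 CPM, in scramble cluster 6. Foxa2 reached 106 CPM in shBicd2 cluster 14 (led by the imprinted RNAs Rian and Meg3) and 63.4 CPM in shBicd2 cluster 1. Prox1 was highest in the same cluster 14, at 468 CPM, where Nr5a2 was lowest, at 15.1 CPM (1.83 to 54.5) from 2 UMIs. Nr5a2 peaked at 158 CPM in scramble cluster 6. Foxa3 was the most even, between 61.4 and 128 CPM. Ordered by level, neighbouring profiles had overlapping intervals in 10 of 10 pairs for Onecut1, Cebpa, Prox1, Nr5a2, Foxa3 and Foxa1, 9 of 10 for Hnf4a and Foxa2, and 7 of 10 for Cebpb. Neighbours in a sorted order lie close by construction, so this count does not show the profiles to be alike. The intervals of the highest and lowest Cebpa profiles, 283 to 410 and 50.8 to 73.4 CPM, did not overlap. Those of Foxa3, 74.7 to 205 and 38.0 to 93.9 CPM, did.

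**Figure D3:**
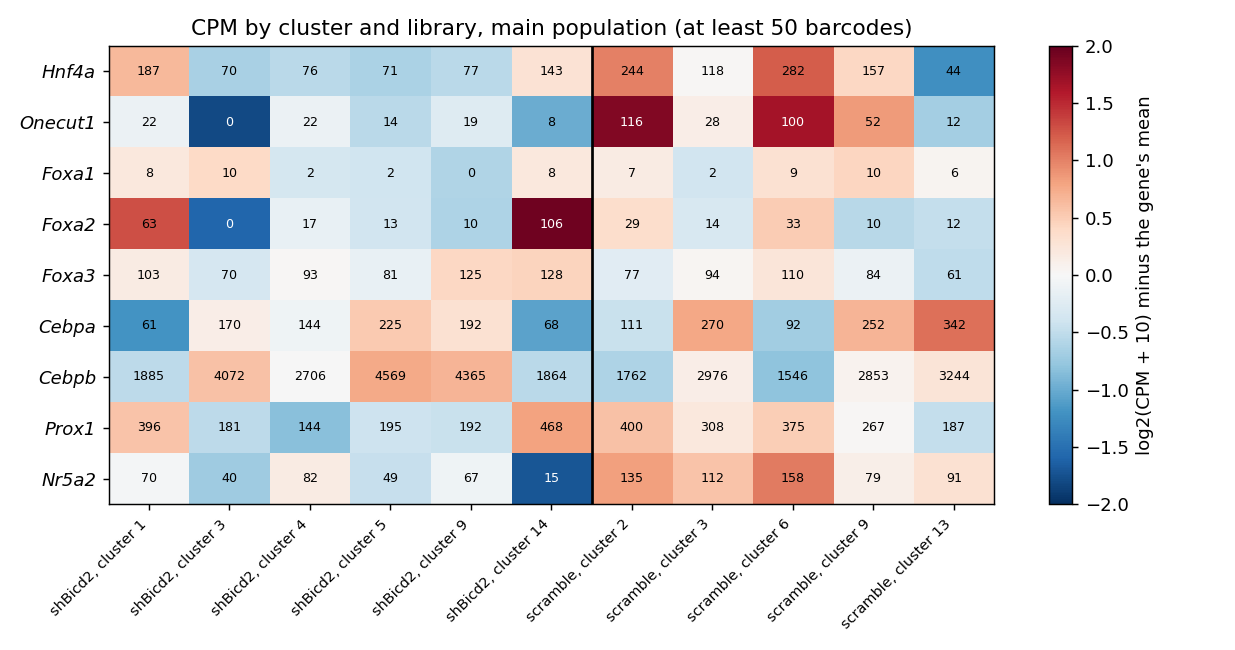
CPM of each factor in main population clusters with at least 50 barcodes of a library, shBicd2 left of the black line and scramble right of it; colour gives log2(CPM + 10) minus the gene's mean. Onecut1 is highest in scramble clusters 2 and 6, followed by scramble cluster 9 at 52.4 CPM, and Cebpb is highest in shBicd2 cluster 5.

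In the main population only clusters 2, 3 and 9 held at least 20 barcodes of each library. They allow a comparison within a cluster at low depth. In cluster 2, with 27 shBicd2 barcodes, Onecut1 was about level: 3 UMIs gave 110 CPM in shBicd2 and 182 UMIs gave 116 CPM in scramble, a ratio of 0.949 (0.194 to 2.82). Hnf4a there had 1 and 383 UMIs, a ratio of 0.150 (0.00380 to 0.842), and Cebpb 56 and 2771, a ratio of 1.16 (0.877 to 1.52). Cluster 3 had 0 Onecut1 UMIs in shBicd2 and 34 in scramble, a ratio of at most 1.40 by its interval. In the same cluster Nr5a2 had 4 and 136 UMIs, a ratio of 0.359 (0.0963 to 0.939), Prox1 had 18 and 374, a ratio of 0.587 (0.344 to 0.940), and Cebpb had 406 and 3618, a ratio of 1.37 (1.23 to 1.52). In cluster 9 Cebpb was again higher, 1.53 (1.35 to 1.74), and the intervals of Hnf4a, 0.488 (0.193 to 1.09), and Onecut1, 0.366 (0.0390 to 1.72), included 1. Averaged with equal weight over these 3 clusters, the ratio was 1.35 for Cebpb, 0.750 for Prox1, 0.629 for Cebpa, 0.440 for Onecut1, 0.417 for Hnf4a, 0.363 for Nr5a2 and 1.07 for Foxa2. For all of these but Cebpb and Prox1 at least 1 cluster had 0 or 1 UMI in shBicd2 (0.5 was added to each sum), so the averages are uncertain and have no interval. In hepatocyte-like cluster 7 the ratio was 0.309 (0.0775 to 0.911) for Onecut1, from 4 and 22 UMIs. It was 0.425 (0.198 to 0.837) for Nr5a2 and 0.543 (0.282 to 0.988) for Cebpa. The intervals of Hnf4a, 1.12 (0.663 to 1.87), Prox1, 1.37 (0.940 to 1.99), and Cebpb, 0.909 (0.788 to 1.05), included 1 there.

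EGFP UMIs divide the barcodes within each library: 725 main population barcodes of shBicd2 carried at least 1 EGFP UMI and 1624 carried none, and in scramble 156 did and 2046 did not. EGFP barcodes were deeper, with medians of 2143 against 1524 UMIs in shBicd2 and 2368 against 1612 in scramble. In shBicd2, 2 of 8 factors were higher in EGFP barcodes by 1.5-fold or more, against 8.83% of 7952 genes, and 1 was lower, against 42.2%. The median log2 ratio of all genes was -0.47 there and that of the factors -0.39, so a ratio moderately below 1 is what most genes showed. In scramble 2 factors were higher (8.56% of 7263 genes) and 3 lower (43.2%).

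Cebpa and Cebpb were the higher ones in both libraries. Cebpa came to 175 CPM in EGFP barcodes and 105 CPM in EGFP-free barcodes of shBicd2, a ratio of 1.67 (1.42 to 1.96), and to 372 and 163 CPM in scramble, a ratio of 2.28 (1.90 to 2.71). Within scramble clusters the Cebpa ratio was 1.34 (1.03 to 1.73) in cluster 3 and 1.30 (0.876 to 1.91) in cluster 13. Cebpb came to 3783 and 2392 CPM in shBicd2, a ratio of 1.58 (1.53 to 1.64), and to 3341 and 2167 CPM in scramble, a ratio of 1.54 (1.46 to 1.63). Cebpa in shBicd2 was ordered with the number of EGFP UMIs, at 105, 124, 161 and 233 CPM in barcodes with 0, 1, 2 to 4, and 5 or more. Cebpb likewise stood at 2392, 2837, 4175 and 4482 CPM. EGFP barcodes made up 76.2% of the heat shock cluster 5 of shBicd2, and within that cluster the ratios were 0.885 (0.672 to 1.18) for Cebpa and 0.989 (0.929 to 1.05) for Cebpb. Without cluster 5 they were 1.32 (1.03 to 1.69) and 1.29 (1.23 to 1.36), and with 5 clusters weighted equally 1.25 and 1.05. The equal-weight Cebpa value rests on cluster 3 of shBicd2, at 8.11 (1.26 to 340) from 16 and 1 UMIs. Clusters 1, 4 and 9 gave 1.01, 0.790 and 0.748 for Cebpa, with intervals that include 1.

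Foxa2 was the lowest in EGFP barcodes of shBicd2, at 18.8 CPM against 49.2 CPM in EGFP-free barcodes, a ratio of 0.381 (0.254 to 0.558). Cluster 1 held 109 of its 142 EGFP-free UMIs. Within clusters 1, 4 and 5 the ratio was 0.685 (0.363 to 1.20), 0.294 (0.0328 to 1.25) and 1.26 (0.351 to 6.83), intervals that include 1. Clusters weighted equally gave 0.534, but cluster 9 entered with 0 and 1 UMIs. In scramble Foxa2 had 7 UMIs in EGFP barcodes and a ratio of 0.679 (0.266 to 1.46). Hnf4a had 93.3 CPM in EGFP barcodes and 139 CPM in EGFP-free barcodes of shBicd2, a ratio of 0.670 (0.556 to 0.803), and 93.5 and 203 CPM in scramble, a ratio of 0.461 (0.327 to 0.634). The median log2 ratio of all genes in the shBicd2 comparison was -0.47. Over 7 alternative settings the Hnf4a ratio there ranged from 0.526 to 0.890. Over 0, 1, 2 to 4, and 5 or more EGFP UMIs in shBicd2, Hnf4a stood at 139, 126, 91.3 and 62.5 CPM. Within the larger clusters this was not seen: the Hnf4a ratio was 1.10 (0.822 to 1.45) in cluster 1, 0.948 (0.558 to 1.56) in cluster 4 of shBicd2, had an interval of 0.845 to 2.88 from 78 and 14 UMIs in its cluster 5, and was 0.872 (0.542 to 1.35) in cluster 3 of scramble. Onecut1 was 0.757 (0.469 to 1.20) in shBicd2 and 0.471 (0.266 to 0.778) in scramble. Nr5a2 gave 0.765 (0.594 to 0.979) and 0.663 (0.461 to 0.927), Prox1 0.762 (0.677 to 0.858) and 0.719 (0.585 to 0.875), and Foxa3 0.840 (0.686 to 1.02) and 0.711 (0.462 to 1.05). In shBicd2 the side of 1 was not stable for these: with clusters weighted equally the ratio was 1.17 for Nr5a2 and 1.06 for Onecut1, and under TMM factors it was 1.02 for Nr5a2, 1.01 for Prox1, 1.01 for Onecut1 and 1.12 for Foxa3. Within clusters 1, 4 and 5 of shBicd2, Prox1 gave 1.15, 1.03 and 1.12.

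Restricted to EGFP-free barcodes, the library ratios kept their side of 1: 0.266 for Onecut1, 0.537 for Nr5a2, 0.687 for Hnf4a, 0.641 for Cebpa, 0.857 for Prox1, 1.10 for Cebpb, 1.14 for Foxa3 and 2.04 for Foxa2. Again 3 factors were lower by 1.5-fold (8.83% of 8780 genes) and 1 was higher (25.7%), with Cebpa past the limit in place of Hnf4a.

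**Figure D4:**
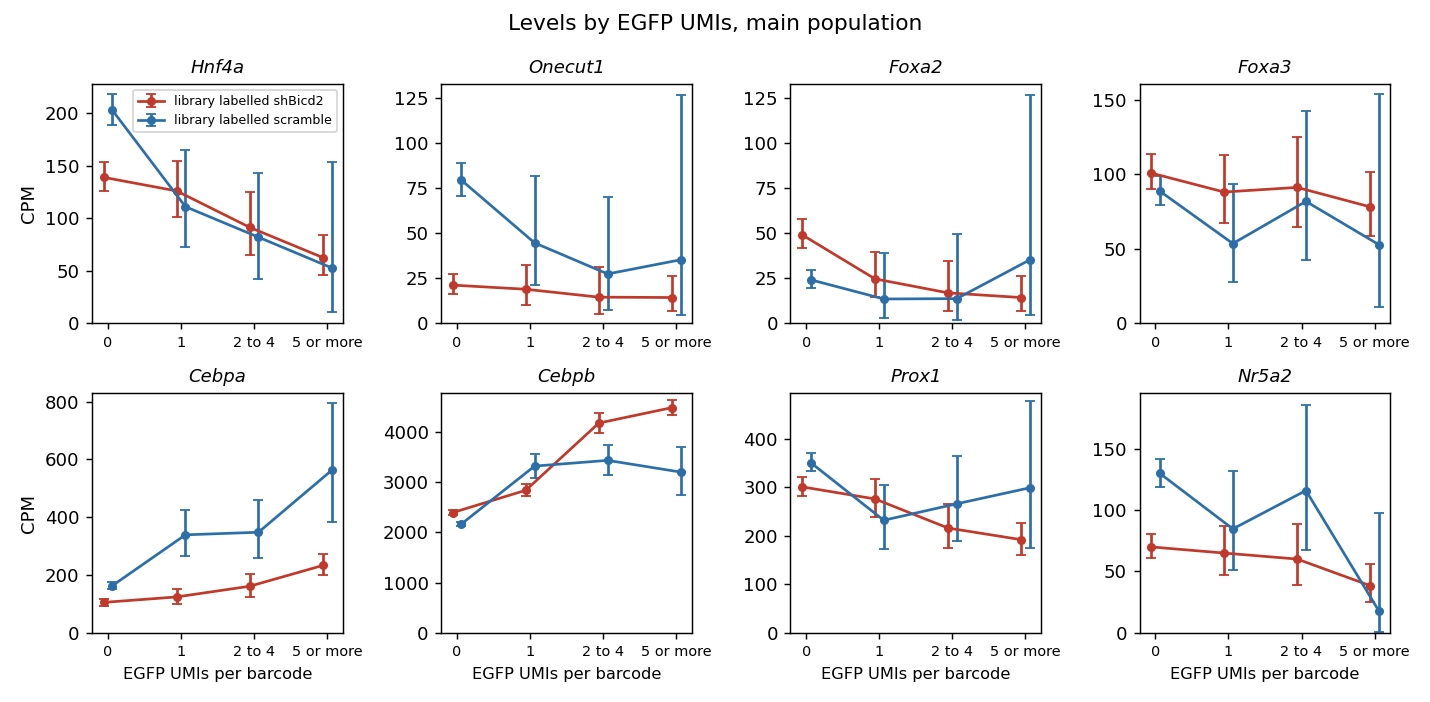
CPM of 8 factors in main population barcodes grouped by EGFP UMIs, with 95% Poisson intervals, for the libraries labelled shBicd2 (red) and scramble (blue); Foxa1 is left out for low counts. Cebpa and Cebpb are higher in every group with an EGFP UMI than in barcodes with none, and Hnf4a is lower.

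Other parts of the network were counted in the main population from lists fixed by function, with the 10.3% and 22.4% of all genes lower and higher by 1.5-fold as background. Among 29 other hepatocyte transcription factors with enough UMIs, 8 were lower and 7 higher (median log2 ratio -0.02). Lower ones included Zbtb20 (1058 and 2772 CPM, ratio 0.382, 0.369 to 0.395), Nfia (0.363), Nfib (0.426), Mlxipl, which encodes the carbohydrate-responsive factor ChREBP (0.584, 1619 and 2772 CPM), and Ppara, the fatty acid receptor (0.627). Higher ones included Creb3l3, a membrane-bound factor of the acute-phase and lipid response (582 and 144 CPM, ratio 4.03, 3.69 to 4.40), and Hhex, a homeobox factor of the early liver bud (62.8 and 9.19 CPM, ratio 6.84, 4.88 to 9.81). Of 15 cofactors of HNF4A and LRH-1, 1 was lower (Med1, a Mediator subunit, 0.541) and 3 were higher, Arid1a (1.63) and Hdac3 (1.70) among them. Of 11 C/EBP partners and regulators none was lower by 1.5-fold and 4 were higher, including Cebpd (1.66, 1.52 to 1.82) and Ddit3, which encodes the stress factor CHOP (1.71, 1.52 to 1.92). Of 3 testable paralogs of the members, 0 were lower and 1, Cebpd, was higher.

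Known targets of the factors were more often higher than lower by 1.5-fold, as were all genes. Of 19 HNF4A targets 1 was lower and 6 were higher (median log2 ratio 0.50): Ttr, the carrier transthyretin, stood at 1008 and 450 CPM (2.24, 2.13 to 2.37), Apoa1 at 1028 and 762 CPM (1.35), and Cyp27a1, a bile acid enzyme, at 161 and 343 CPM (0.469, 0.429 to 0.512). Of 12 FOXA targets 1 was lower (Pck1, a gluconeogenic enzyme, 0.642) and 8 were higher, with a median of 0.71; the urea cycle enzyme Cps1 had a ratio of 3.01 and Alb, albumin, 1.55. Of 9 LRH-1 targets 2 were lower, among them Scarb1, the HDL receptor (97.9 and 236 CPM, 0.414, 0.370 to 0.463), and 4 were higher, among them Abcg5, a sterol transporter (2.14). Of 16 C/EBP targets 3 were lower and 6 higher: Orm1, an acute-phase protein, had 1.67, Itih4 0.633 and Hamp, hepcidin, 0.652. Of 3 testable fetal and biliary genes 1 was lower and 0 were higher. Several genes stand in more than 1 list, so these counts are not independent.

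Over 19 cluster-by-library profiles of at least 50 barcodes, the gene most like each of 8 factors among 6177 genes was, by Pearson r of log2(CPM + 10), Adarb1 for Onecut1 (0.85), C4a for Nr5a2 (0.86), Fbp1 for Hnf4a (0.81), Dus1l for Foxa2 (0.92), Cobl for Foxa1 (0.76), Cisd1 for Cebpa (0.84), Gm12762 for Cebpb (0.94) and Gas6 for Prox1 (0.88). Among the factors themselves the highest were Nr5a2 with Onecut1 (0.77) and Prox1 with Foxa2 (0.76); Cebpb with Cebpa gave 0.59 and Cebpb with Hnf4a -0.47. These are descriptions: the profiles share 2 libraries, their depth and their free RNA.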

How the data were processed

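Single-barcode RNA of mouse liver was sequenced with the 10x 3' kit v3.1, per the labels' protocols, in 1 library per group. The authors deposited raw UMI counts for each feature in each barcode. Cell Ranger 6.1.2 is named per the file headers, and Cell Ranger 6.0.1, Seurat 4.0.3 and mm10 per the submitters' processing notes; intron and strand use in counting are not given in the sources used here.

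Barcodes under 200 detected genes or above 25% mitochondrial RNA were dropped, and the highest Scrublet scores (scanpy 1.11.5) were removed at 0.8% per 1000 barcodes, 73 and 62 in the libraries labelled shBicd2 and scramble. Clusters came from 2000 variable genes without the 9 factors, EGFP and GFP, 30 principal components, 15 neighbours and leidenalg 0.10.2 at resolution 1.0, with no integration of the libraries. This gave 17 clusters. A cluster was named where at least 3 markers and 40% of a class's markers exceeded the other clusters by 1 log2 unit and were seen in 3% of its barcodes or more; cluster 10, whose leading genes go against its class, stayed unnamed. The main population is the other unnamed clusters, as decided with the clusters in view.

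Within each class of a library, UMIs were added up and divided by the class total (CPM) with Python 3.11.15, numpy 2.4.6, scipy 1.17.1 and pandas 2.3.3. Intervals are at 95%: exact Poisson for CPM, exact conditional binomial for ratios, Clopper-Pearson for shares; log2 ratios had 0.5 added to each sum. These reflect counting error alone; where a gene had 0 UMIs, up to 3 are allowed for. No p-value was computed. The intervals were tested on simulated Poisson counts. These hold no spread between barcodes, clusters or animals, so the test checks the calculation only. The TMM factors of edgeR 4.0.16 were an alternative. The factors and lists were chosen with earlier results of these data known. Named genes are the 9 factors, EGFP, Bicd2, list genes with the most UMIs or past 1.5-fold with at least 200 UMIs, the genes most like each factor, and leading genes of clusters; overlapping antisense genes were added after seeing the data. Coordinates of genes were taken by ID from GENCODE (GRCm38), and promoter sequences from RefSeq (GRCm38.p6), matched by symbol for all 9 factors. Some genes that this rule takes are not reported here.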

Additional observations from a re-analysis of the deposited data

Results flagged for a closer look

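Cebpa stood on opposite sides of 1 in different classes of barcodes. Its ratio of shBicd2 over scramble was 2.05 (1.07 to 4.09) in the classes outside the main population and hepatocyte-like barcodes, from 31 and 15 UMIs, and 0.715 (0.643 to 0.796) in the main population. The difference between the classes was not tested. There were 46 neutrophil-like barcodes under the label shBicd2 and 1 under scramble; without them the ratio in the other classes was 1.93 (0.964 to 3.98).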

How the results depend on the processing

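No paired analysis was possible because each group is 1 library and the labels carry no replicate numbers. The library ratios of Onecut1, Nr5a2, Cebpa, Prox1 and Foxa2 in the main population stayed on their side of 1 under all 14 alternatives, in the ranges 0.226 to 0.613, 0.363 to 0.613, 0.463 to 0.773, 0.669 to 0.983 and 1.07 to 2.50. Hnf4a turned to 1.11 without clusters 2 and 6, an alternative chosen after seeing the data. In the main population the count of factors higher by 1.5-fold was 0 under TMM factors, thinning, a fold of 2, equal cluster weights and without clusters 1, 2 and 6, and the count of lower ones was 1 at a fold of 2. Over all kept barcodes the count of higher ones was 0 under TMM factors, thinning and a fold of 2. For EGFP barcodes, the count of lower factors was 3 with 2 EGFP UMIs or more, 2 when thinned and 2 with at least 1000 UMIs per barcode; the count of higher ones was 1 when thinned and 0 with equal cluster weights, a fold of 2 or without cluster 5. List medians (log2) moved under TMM factors to -0.18 for paralogs, 0.21 for C/EBP partners, 0.11 for LRH-1 targets, 0.24 for C/EBP targets and -0.45 for fetal and biliary genes. At a minimum of 20 UMIs they were 0.36 for paralogs and 0.14 for LRH-1 targets, and without EGFP barcodes 0.26 for C/EBP partners, 0.24 for LRH-1 targets and 0.32 for C/EBP targets. A fold of 2 takes fewer genes by construction; for the other alternatives the cause was not tested. Foxa1 is limited by its 21 and 24 UMIs.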
